A study of Mus musculus with 4 samples.

Results

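Circadian clock genes were followed in 3T3-L1 adipocytes as the array probes that carry the name of 1 of 10 listed genes, namely Arntl, Clock, Per1, Per2, Per3, Cry1, Cry2, Dbp, Nr1d1 and Nr1d2. All 10 were found among 35018 genes on the array, through 14 probes of 60 bases, with 2 probes each for 4 genes and 1 probe each for the other 6. 3T3-L1 is a mouse fibroblast line that forms fat-storing adipocytes when induced in culture. Differentiated cells were kept for 7 days with daidzein+PT (25 uM daidzein, a soy isoflavone, together with 100 ug/ml of a pig testis extract), with daidzein alone at 25 uM, with PT alone at 100 ug/ml, or with PBS. Each of these 4 groups was read on 1 single-colour array, so no value has a replicate, and no test between groups was made. The sources used here give no hour of collection and no time since the last change of medium, and each group was collected at 1 time. A shift in the phase of a rhythm and a change in its mean level therefore cannot be told apart, and in pooled cells the same holds for fewer cells of a type and less RNA per cell.

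The molecular clock is a feedback loop of transcription. The proteins of Arntl (BMAL1) and Clock pair and bind E-box motifs in the promoters of the Per and Cry genes, whose proteins return to the nucleus and repress the pair. In a second loop, the nuclear receptors encoded by Nr1d1 and Nr1d2 (REV-ERB alpha and beta) repress Arntl through the ROR element, where the ROR receptors activate it, and Dbp carries the rhythm to genes with a D-box. Cultured fibroblasts and adipocytes hold such clocks, and Nr1d1 is also known to rise as 3T3-L1 cells become adipocytes.

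Signals are given as a percentage of the 75th percentile of their array, and differences between arrays are on the log2 scale. By the scanner software's flag, each array read 9 of the 10 genes well above background, and it was the same 9 throughout. For the probes that stand for these 9 genes, its error model put between 10% and 16.1% on each signal, which comes to 0.20 to 0.31 on a log2 difference of 2 arrays. A second gauge was the spread over genes of the interaction, which takes PT over PBS away from daidzein+PT over daidzein, scaled to a difference of 2 arrays. This SD was 0.33 in the dimmest of 3 equal classes of genes by mean signal, 0.14 in the middle class and 0.11 in the brightest. Array noise and a real effect of one treatment on the response to the other both enter it. The SD applies to a difference of 2 arrays. An interaction takes in all the arrays and spreads more widely, so this SD is not its gauge. Signals of different probes cannot be set against each other, so levels are compared between arrays within a probe.

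The 4 arrays lay on 1 slide and were scanned together, with 49.7% to 51.4% of spots well above background and 0 saturated spots. The daidzein+PT and PT arrays lay in row 2, and the daidzein and PBS arrays in row 1, so PT and slide row cannot be told apart. The adipocyte markers moved strongly with treatment. All 8 of them (Adipoq, Fabp4, Plin1, Cidec, Lpl, Cfd, Cd36 and Pparg) were well above background on each array, and their summed signal was 132594 for daidzein+PT, 81298 for daidzein, 34969 for PT and 18457 for PBS. The 7 preadipocyte or fibroblast markers, all well above background on each array, summed to 105071, 98367, 118674 and 120298 on the same arrays. Most of these sums came from Dlk1, Col1a1 and Col3a1. Gene by gene, 6 of the 7 were below 0 for daidzein+PT over PBS and 1 (Col1a1) above it, with a median of -0.37. Of 6 macrophage markers, 3 or 4 were well above background on an array, with sums over all 6 of 3367 to 3660, most of it from Itgam alone (3074 to 3383), and the defining genes Adgre1 and Ptprc were so on no array. Of 6 spermatogenic cell markers, 2 (Prm1 and Prm2) were well above background, with sums over all 6 of 21.7 to 29.4, whereas Tnp1, Tnp2, Ddx4 and Dazl were so on no array. The part of adipocyte content in the values of the clock genes was not tested.

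The promoters of 9 of the 10 genes matched RefSeq sequence (GRCm38.p6), in 13 windows of 300 bases running from 250 bases before a transcript start to 50 after it. Per2 had no window in the sequences used, so its promoter was not searched for motifs. The windows are shown because the loop acts through promoters, and 5 of them follow: 1 for the activator Arntl, 1 for each of the repressors Per1 and Cry2, and 1 for each REV-ERB gene. Letters run 5′ to 3′ on the strand of the gene. Capitals mark a match on either strand to the E-box CACGTG, its variant CACGTT, the D-box TTATGTAA or TTACGTAA, the ROR element core TAGGTCA or the cyclic AMP element TGACGTCA.
Arntl (chr7:113207261-113207560, plus strand): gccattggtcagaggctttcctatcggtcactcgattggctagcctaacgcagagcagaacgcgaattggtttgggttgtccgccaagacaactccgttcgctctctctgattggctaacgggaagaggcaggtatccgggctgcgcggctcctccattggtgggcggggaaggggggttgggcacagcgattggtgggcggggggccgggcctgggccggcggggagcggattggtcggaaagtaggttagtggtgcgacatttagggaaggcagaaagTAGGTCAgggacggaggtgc
Per1 (chr11:69098699-69098998, plus strand): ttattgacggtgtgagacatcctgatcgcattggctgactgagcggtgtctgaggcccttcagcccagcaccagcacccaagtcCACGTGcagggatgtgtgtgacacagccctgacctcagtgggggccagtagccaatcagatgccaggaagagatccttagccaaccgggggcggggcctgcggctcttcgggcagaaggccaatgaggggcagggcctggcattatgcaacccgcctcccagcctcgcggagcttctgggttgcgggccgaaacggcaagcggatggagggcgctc
Cry2 (chr2:92434020-92434319, minus strand): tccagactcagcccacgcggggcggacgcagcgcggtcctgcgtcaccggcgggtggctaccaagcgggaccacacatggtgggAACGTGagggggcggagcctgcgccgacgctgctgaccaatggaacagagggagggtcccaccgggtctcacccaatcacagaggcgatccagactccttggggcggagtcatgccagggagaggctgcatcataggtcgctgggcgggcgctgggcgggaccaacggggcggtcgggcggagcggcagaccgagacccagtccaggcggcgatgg
Nr1d1 (chr11:98775328-98775627, minus strand): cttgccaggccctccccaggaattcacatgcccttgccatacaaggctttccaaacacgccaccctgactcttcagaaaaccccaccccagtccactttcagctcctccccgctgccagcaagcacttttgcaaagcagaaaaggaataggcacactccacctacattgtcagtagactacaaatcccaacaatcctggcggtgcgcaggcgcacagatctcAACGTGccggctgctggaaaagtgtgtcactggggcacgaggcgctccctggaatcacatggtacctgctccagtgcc
Nr1d2 (chr14:18239057-18239356, minus strand): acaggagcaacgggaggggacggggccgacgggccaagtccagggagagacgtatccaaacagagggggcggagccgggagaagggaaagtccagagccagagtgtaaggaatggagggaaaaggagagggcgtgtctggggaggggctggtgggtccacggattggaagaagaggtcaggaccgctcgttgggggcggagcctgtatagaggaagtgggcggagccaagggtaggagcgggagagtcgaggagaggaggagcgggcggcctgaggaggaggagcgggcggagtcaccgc

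The E-box was found in the windows of 2 of the 9 genes searched, Per1 and Cry1, against 7.15% of all 32851 promoter windows of the same length. Its variant was found for 3 genes, Cry1, Cry2 and Nr1d1, against 4.68% of windows, where it reads AACGTG on the strand of the gene; no match overlapped another. The D-box was found for 1 gene, Per3, at 2 places, against 1.06% of windows. The ROR element core was found for 1 gene, Arntl, in the second of its 2 windows, against 2.61%, and the cyclic AMP element for 0 genes, against 1.79%. These shares are per window, whereas a gene with several windows counts where any of them matches. The counts of genes and the shares are therefore not like for like, and no excess is read from them. A match is a run of letters in this window and no evidence of binding.

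Arntl and Clock, which encode the activating pair, differed little between arrays. The Arntl probe (NM_007489, mm9 chromosome 7, 120457261 to 120457320) read 98.5 for daidzein+PT, 101 for daidzein, 96.7 for PT and 91.0 for PBS. The 3 treated arrays were above PBS by 0.11, 0.15 and 0.09 in that order, against an SD of 0.14 in its class, which only the daidzein difference exceeded, by a small margin. The Clock probe (NM_007715, mm9 chromosome 5, 76641377 to 76641436) read 135 for daidzein+PT, 136 for daidzein, 115 for PT and 117 for PBS. Both daidzein arrays were above both arrays without it. Daidzein gave Clock a log2 difference of 0.22 with PT (daidzein+PT over PT) and 0.22 without it (daidzein over PBS), with an SD of 0.14, and PT gave -0.02 in each of its pairs. The error model put 0.21 on the first of these differences and 0.20 on the second, about as much as the differences themselves.

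**Figure D1:**
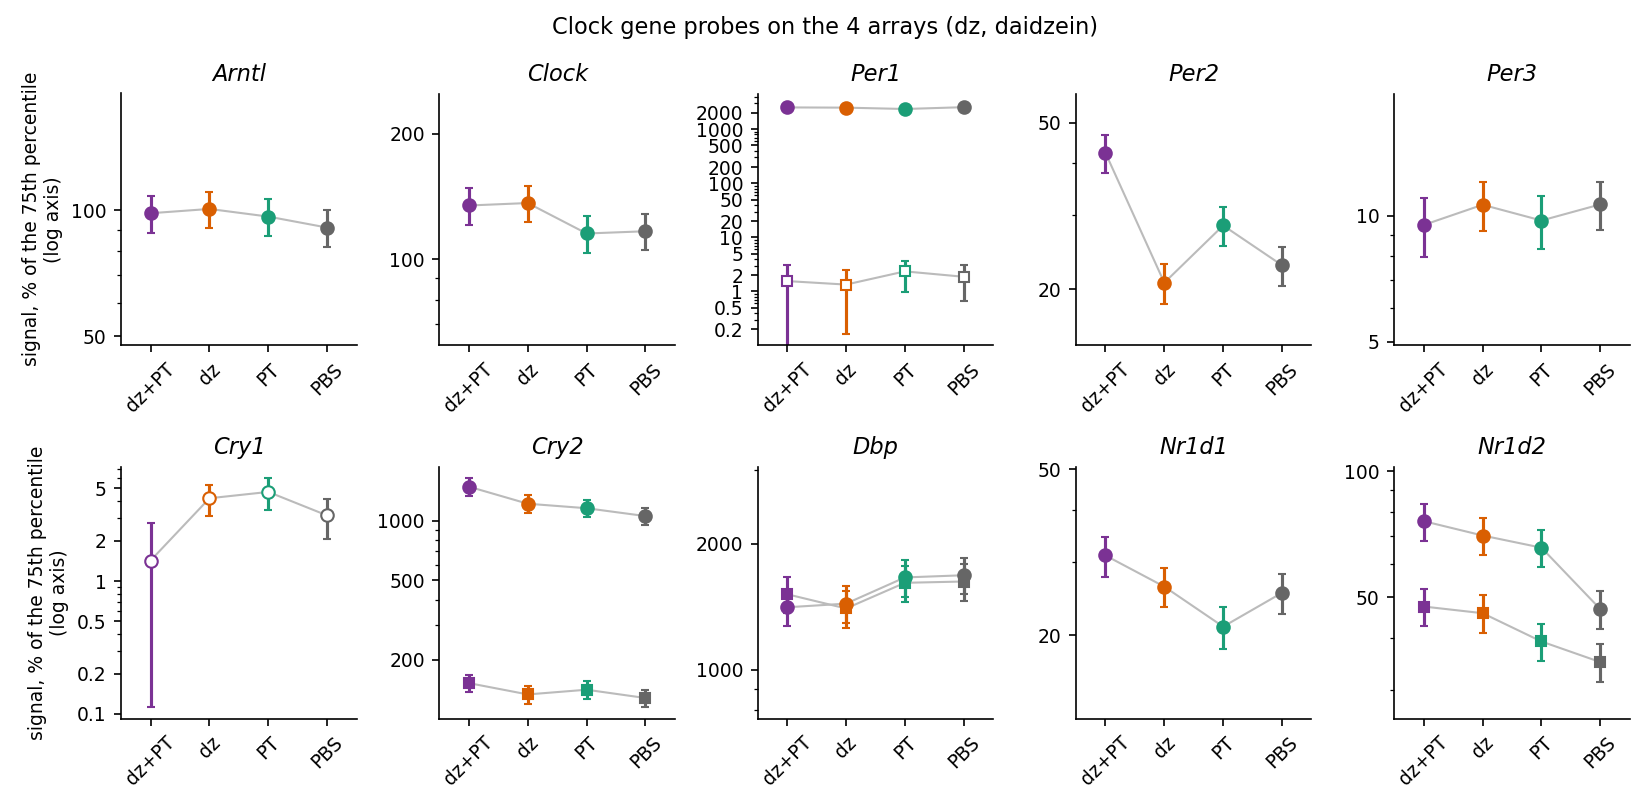
Signal of each clock gene probe, as a percentage of its array's 75th percentile on a log axis, on the daidzein+PT, daidzein, PT and PBS arrays (1 array each). Circles are the probe with the highest mean signal and squares a further probe, bars are the scanner software's error, and open symbols are not well above background; Per2 stood at 42.4 on the daidzein+PT array and at 20.7 to 28.4 on the others.

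The Period genes encode the PER proteins, which form the repressor complex with CRY, and of these Per2 had the wide differences between arrays. The Per2 probe (NM_011066, mm9 chromosome 1, 93313046 to 93313105) read 42.4 for daidzein+PT, 20.7 for daidzein, 28.4 for PT and 22.8 for PBS. The daidzein+PT array stood above the other 3, and daidzein alone was the lowest. The log2 difference was 0.89 for daidzein+PT over PBS (1.86-fold), -0.14 for daidzein over PBS and 0.32 for PT over PBS, with an SD of 0.33 for this dim gene. PT added to daidzein gave 1.03 (2.05-fold), and daidzein added to PT gave 0.58. The interaction was 0.72, to which the SD for a difference of 2 arrays does not apply. With normexp background correction, which shrinks differences of dim spots, daidzein+PT was at 0.59 over PBS and at 0.74 over daidzein, and PT alone was at 0.16 over PBS.

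Per2 had the widest range of the 9 genes over the 4 arrays, 1.03 on the log2 scale, and 92.9% of the 6116 genes in its class of signal had a smaller one. Likeness to Per2 was measured as the Euclidean distance between the 3 log2 differences over PBS, among 12366 RefSeq-named genes that every array read well above background. The nearest was Pon3 at 0.15, a paraoxonase, with 0.75 for daidzein+PT over PBS, -0.09 for daidzein over PBS and 0.32 for PT over PBS. Snx24 (a sorting nexin) followed at 0.18, Mgme1 (a mitochondrial genome exonuclease) at 0.21, Cavin4 (a caveolar coat protein) at 0.25 and Gm5478 at 0.28. These 5 genes were all in the dimmest class, and a distance over 3 differences that share the PBS array describes these arrays only.

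The main Per1 probe (NM_011065, mm9 chromosome 11, 68923364 to 68923423) read 2527 for daidzein+PT, 2502 for daidzein, 2363 for PT and 2553 for PBS. It was bright, and its whole range over the 4 arrays was 0.11, against an SD of 0.11 for a difference; 20.3% of the 6116 genes in its class had a smaller range. A second probe named Per1 was designed from the clone sequence AK081813, at mm9 chromosome 11, 68919895 to 68919954. It was well above background on no array. Per3 (NM_011067, mm9 chromosome 4, 150379256 to 150379315) read 9.51 for daidzein+PT, 10.6 for daidzein, 9.74 for PT and 10.6 for PBS. Its differences over PBS were -0.16 for daidzein+PT, -0.003 for daidzein and -0.13 for PT, each under the SD of 0.33, and 8.40% of genes in its class had a smaller range than its 0.16. These small values depend on the scaling: PT over PBS was -0.34 with quantile normalization and in the deposited series table, past the SD, and daidzein+PT over PBS was -0.32 with each of them and 0.01 with normexp.

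Of the cryptochromes, the partners of PER in repression, Cry2 was higher on each treated array and Cry1 could not be read. The main Cry2 probe (NM_009963, mm9 chromosome 2, 92243807 to 92243866) read 1481 for daidzein+PT, 1215 for daidzein, 1153 for PT and 1053 for PBS. All 3 treated arrays were above PBS, and daidzein+PT was above each single treatment. The differences over PBS were 0.49 (1.41-fold), 0.21 and 0.13 in that order, with an SD of 0.11, and 90.5% of the genes in its bright class had a smaller range. The error model put 0.20 on each of these differences, about as much as the 0.21 and more than the 0.13. PT added to daidzein gave 0.28, and daidzein added to PT gave 0.36. The second Cry2 probe (NM_001113333, mm9 chromosome 2, 92251417 to 92251476) read 152 for daidzein+PT, 134 for daidzein, 141 for PT and 128 for PBS. It had the same array highest and the same array lowest, with smaller differences over PBS of 0.25 for daidzein+PT, 0.06 for daidzein and 0.14 for PT. The only Cry1 probe (NM_007771, mm9 chromosome 10, 84594731 to 84594790) was well above background on no array. Its processed signals of 4.33 for daidzein+PT, 14.4 for daidzein, 16.5 for PT and 9.78 for PBS lay below the dimmest spots so flagged there (17.7, 15.8, 17.9 and 14.3), so no difference is given.

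Of the REV-ERB genes, the repressors of Arntl, Nr1d2 was above PBS on each treated array by more than the SD of its class, whereas the differences of Nr1d1 from PBS lay under it; the contrast between the 2 genes was not tested. The main Nr1d2 probe (BC096461, mm9 chromosome 14, 19036568 to 19036627) read 76.0 for daidzein+PT, 70.2 for daidzein, 65.7 for PT and 46.8 for PBS. The 3 treated arrays lay close together, all above PBS. The differences over PBS were 0.70 (1.62-fold) for daidzein+PT, 0.59 for daidzein and 0.49 (1.40-fold) for PT, with an SD of 0.33. Adding a second treatment gave less, with 0.11 for PT added to daidzein and 0.21 for daidzein added to PT, and the interaction was -0.37. The SD of 0.33 is for a difference of 2 arrays and is narrower than the spread of an interaction, so it does not place this value. The second Nr1d2 probe (NM_011584, mm9 chromosome 14, 19037253 to 19037312) read 47.5 for daidzein+PT, 45.8 for daidzein, 39.2 for PT and 35.0 for PBS, in the same order. Its differences over PBS were 0.44, 0.39 and 0.16. With normexp the main probe was at 0.51, 0.43 and 0.30, and with the mean of both probes Nr1d2 was at 0.57, 0.49 and 0.33, so under both the PT difference did not exceed the SD. For daidzein over PBS, Nr1d2 by its main probe only just passes the 1.5-fold threshold used for the counts given further on, and falls short of it under both of these alternatives.

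Nr1d1 was read by 1 probe (NM_145434) whose ends lie 503 bases apart on mm9 chromosome 11, from 98630526 to 98631028, so its 60 bases join parts of the transcript that are separated in the genome. The probe sequence as the scanner files give it, 5′ to 3′, is shown because it joins these parts and so reads spliced RNA.
Nr1d1 probe: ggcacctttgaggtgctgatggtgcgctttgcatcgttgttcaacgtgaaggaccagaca
It read 31.1 for daidzein+PT, 26.2 for daidzein, 21.0 for PT and 25.3 for PBS. The daidzein+PT array was the highest and PT alone the lowest, with PBS and daidzein alone between them. The differences over PBS were 0.30 for daidzein+PT, 0.05 for daidzein and -0.27 for PT, each under the SD of 0.33 for its class. PT over PBS was -0.37 with quantile normalization and -0.38 in the deposited series table, and daidzein+PT over PBS was 0.36 with cyclic loess, all past that SD. Daidzein added to PT gave 0.57 (1.48-fold), and PT added to daidzein gave 0.25. The interaction was 0.52. Thra, the thyroid hormone receptor gene that overlaps Nr1d1 on the opposite strand, read 1648 for daidzein+PT, 1699 for daidzein, 1914 for PT and 1947 for PBS, a difference of -0.24 for daidzein+PT over PBS (SD 0.11) where Nr1d1 had 0.30.

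Dbp encodes a PAR bZIP transcription factor that is a direct target of the BMAL1 and CLOCK pair and is widely used as a readout of it. Its main probe (NM_016974, mm9 chromosome 7, 52965322 to 52965381) read 1411 for daidzein+PT, 1439 for daidzein, 1663 for PT and 1683 for PBS. Both arrays with daidzein were below both arrays without it. Daidzein gave -0.24 with PT and -0.23 without it, with an SD of 0.11, and PT gave -0.03 with daidzein and -0.02 without it. The second probe (mm9 chromosome 7, 52965461 to 52965520) read 1516 for daidzein+PT, 1401 for daidzein, 1614 for PT and 1626 for PBS, with both daidzein arrays again the lower. There daidzein gave -0.09 with PT and -0.21 without it. The error model put 0.20 on each of these differences.

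Counts of clock genes past a fold threshold are given beside the share over all genes. For daidzein+PT over PBS, 0 of 9 genes were at 2-fold or more, against 3.07% of 18558 genes compared, and 2 of 9 (Per2 and Nr1d2, both higher) were at 1.5-fold or more, against 9.01%. The median over the 9 was 0.20, with 6 above 0, where the median of all genes was -0.03, with 8452 of 18558 above 0. For daidzein over PBS, 0 of 9 were at 2-fold, against 1.47% of 19013 genes, and 1 of 9 (Nr1d2, just past it) at 1.5-fold, against 5.54%. The median was 0.05, with 5 of 9 above 0, against -0.03 for all genes, with 8346 of 19013 above 0. For PT over PBS, 0 of 9 reached 2-fold or 1.5-fold, against 0.936% and 3.3% of 18902 genes, and the median was -0.02, as for all genes. These 3 comparisons share the PBS array.

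For PT added to daidzein (daidzein+PT over daidzein), 1 of 9 genes, Per2, was at 2-fold or more, against 1.19% of 18668 genes compared, and the same gene was the 1 at 1.5-fold, against 4.11%. The median of the 9 was 0.01 there, and that of all genes 0.01. For daidzein added to PT (daidzein+PT over PT), 0 of 9 were at 2-fold, against 2.94% of 18611 genes, and 0 at 1.5-fold, against 8.65%. Per2 and Nr1d1 lay just under 1.5-fold here, and both passed it with quantile normalization, cyclic loess and the deposited series table, at 0.61 to 0.65. The median of the 9 was 0.21, with 7 above 0, and that of all genes -0.01, with 9051 of 18611 above 0. With 9 genes, 1 gene alone moves the share by more than any of these background percentages.

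**Figure D2:**
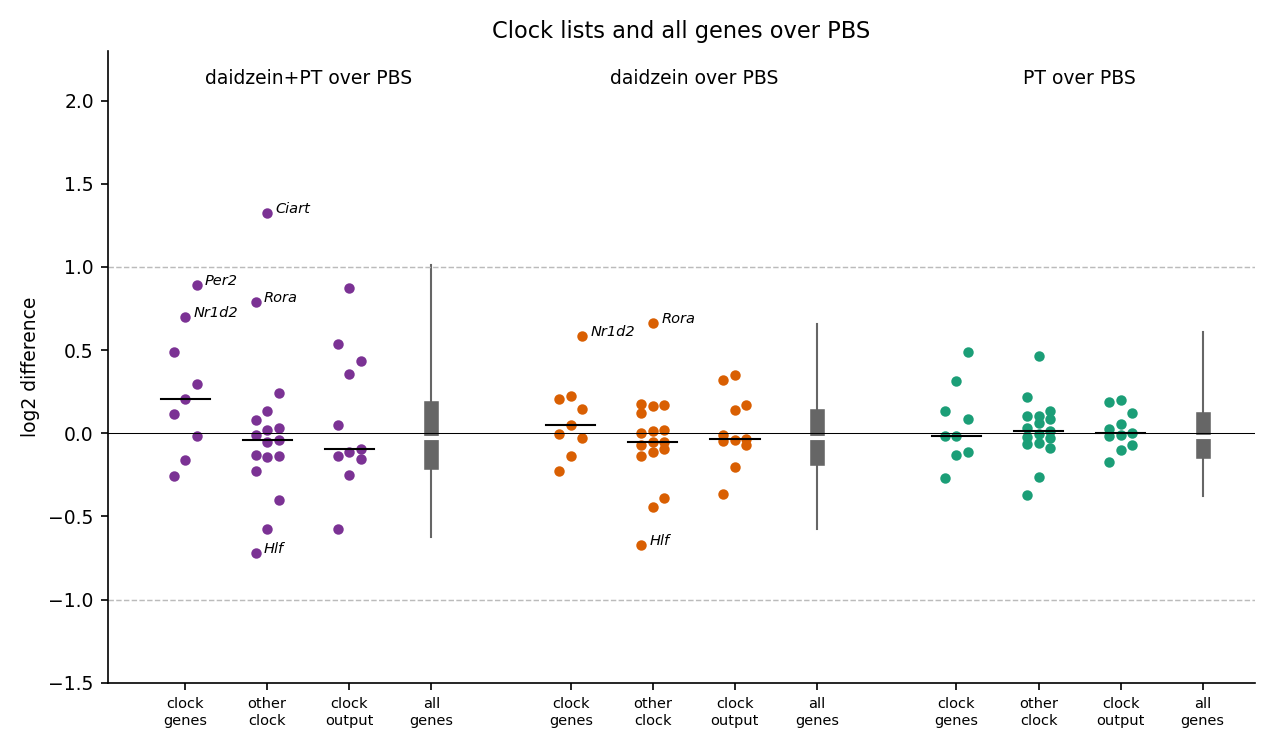
Log2 difference over PBS for the clock genes, the other clock genes and the clock-output genes (points, with the median as a line) and for all genes well above background on both arrays (thick bar, middle 50%; thin bar, middle 95%; white mark, median), for daidzein+PT, daidzein and PT. Genes of the clock and other clock lists past 1.5-fold are named, and dashed lines mark 2-fold; Per2 at 0.89 and Nr1d2 at 0.70 are the clock genes so named for daidzein+PT, beside Ciart at 1.32 and Rora at 0.79.

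Each treatment was read in 2 pairs of arrays that share no array, with and without the other treatment. For daidzein, 7 of 9 clock genes had the same sign in both pairs, 5 above and 2 below, against 68.1% of 18348 genes. By the main probes, Cry2 (0.36 with PT, 0.21 without), Clock and Dbp exceeded the SD of their class in both pairs. The second Cry2 probe gave daidzein differences of 0.11 with PT and 0.06 without it, and the second Dbp probe -0.09 and -0.21. Nr1d2 exceeded it without PT (0.59, SD 0.33) and not with PT (0.21), and Arntl likewise without PT (0.15, SD 0.14) and not with it (0.03). For PT, 6 of 9 had the same sign in both pairs, 3 above and 3 below, against 55.0% of genes. By the main probes, only Cry2 exceeded the SD of its class (0.11) in both PT pairs, at 0.28 with daidzein and 0.13 without it. The error model put 0.20 on each of these 2 differences, more than the 0.13. How many of all genes exceeded the SD of their class in both pairs was not counted, for daidzein or for PT. These calls therefore have no background share, and they do not set the clock genes apart from other genes.

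**Figure D3:**
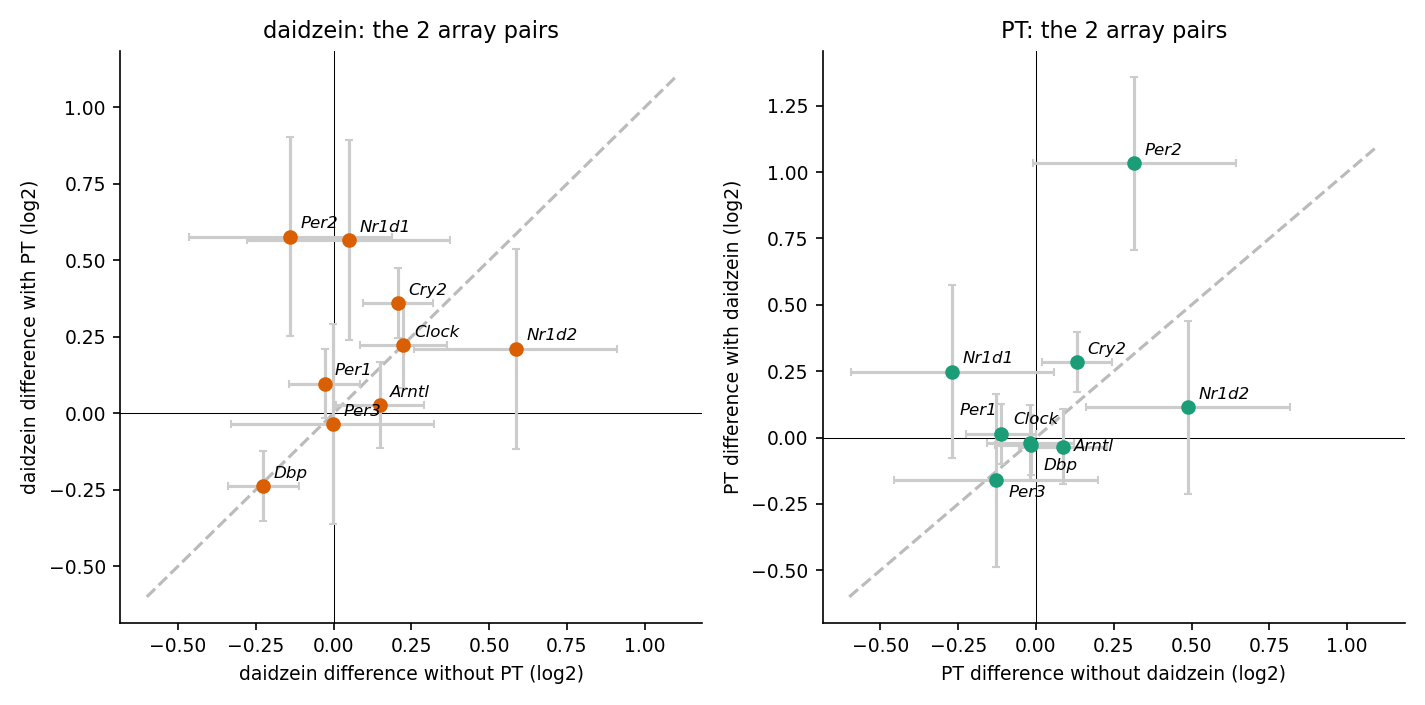
Log2 difference of daidzein with PT against without PT (left), and of PT with daidzein against without daidzein (right), for the 9 clock genes that could be compared; bars are the SD of a difference for the gene's class of signal and the dashed line marks equal differences. Clock and Dbp lie on the line for daidzein, at 0.22 and near -0.23, and Per2 lies above it for PT at 1.03 against 0.32.

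Further clock genes were taken as a list of 19, of which 17 could be compared, since Npas2, a Clock paralogue, and Rorb were well above background on no array. For daidzein+PT over PBS, 1 was at 2-fold or more (Ciart, higher), 2 at 1.5-fold or more higher (Ciart and Rora) and 1 lower (Hlf), against 3.07% of all genes at 2-fold and 9.01% at 1.5-fold, with a median of -0.04. Rora, which encodes a receptor that opposes REV-ERB at Arntl, read 20.6 for daidzein+PT, 18.8 for daidzein, 16.4 for PT and 11.9 for PBS. Every treated array was above PBS, by 0.79 for daidzein+PT, 0.66 for daidzein and 0.46 for PT, with an SD of 0.33, although only 1 of its 2 probes was well above background. The order of the arrays for Rora was that of the summed adipocyte markers and of Nr1d2. It was also that of Cry2 by its main probe, and of Tef, Por and the brighter Alas1 probe, which are named below. The order is therefore not particular to Rora and Nr1d2, and a link to adipocyte content was not tested. Rora is a dim spot, and over the other settings tried daidzein+PT over PBS ranged from 0.36 to 0.85.

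Ciart (Gm129 on the array), which encodes the clock repressor CHRONO, read 21.5 for daidzein+PT, 9.61 for daidzein, 9.43 for PT and 8.59 for PBS. It stood apart on the daidzein+PT array only. Per2 was also highest there, but its other arrays lay less close together, with 0.32 for PT over PBS. Ciart differed by 1.32 for daidzein+PT over PBS, by 1.16 over daidzein and by 1.19 over PT. Daidzein alone gave Ciart 0.16 over PBS and PT alone 0.14, with an SD of 0.33. Over the other settings daidzein+PT over PBS ranged from 0.65 to 1.38. Of the PAR bZIP relatives of Dbp, Hlf read 13.8 for daidzein+PT, 14.3 for daidzein, 24.4 for PT and 22.7 for PBS. Both daidzein arrays were below the other 2, as for Dbp, and daidzein gave Hlf -0.82 with PT and -0.67 without it (SD 0.33). With normexp these were -0.32 and -0.35, and daidzein+PT over PBS was -0.27 in place of -0.72, under 1.5-fold. Tef, a further gene of that family, was at 0.24 for daidzein+PT over PBS, and Nfil3, which encodes a repressor at the same D-box, at 0.02. Fbxl21, whose product marks CRY proteins for turnover or protects them, was at -0.57 for daidzein+PT over PBS, from -0.74 to -0.15 over the other settings. By their brightest probes, the remaining 11 lay between -0.40 (Timeless) and 0.14 (Arntl2, the paralogue of Arntl). Among them were the kinase genes Csnk1d (0.08) and Csnk1e (-0.04) and the repressor genes Bhlhe40 (-0.05) and Bhlhe41 (-0.01). A further probe well above background on each array gave -0.55 for Timeless and 0.23 for Csnk1d, outside that range. For Bhlhe41 such a probe gave -0.375 and for Arntl2 -0.11, so the probes of these genes disagree. Such probes of the other genes lay within that range.

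Genes known as rhythmic outputs of the clock were taken as a list of 11, all compared. For daidzein+PT over PBS, 0 were at 2-fold, against 3.07% of all genes, and 1 at 1.5-fold or more, higher, against 9.01%. Their median was -0.09, and 0.05 with either mean over probes. Alas1, the first enzyme of the synthesis of heme (the ligand of the REV-ERB proteins), was at 0.88 over PBS for daidzein+PT, 0.32 for daidzein and 0.19 for PT by its brighter probe. Its other probe gave -0.03, -0.20 and -0.06, so the 2 probes disagree. Por, the electron donor of cytochrome P450 enzymes, was at 0.54 for daidzein+PT over PBS, Nampt, an enzyme of NAD salvage, at 0.43 and the ubiquitin protease gene Usp2 at 0.36, with SDs of 0.11, 0.11 and 0.14. Pdk4, an inhibitor of pyruvate use, was at -0.57 for daidzein+PT over PBS and -0.37 for daidzein over PBS. Noct (Ccrn4l on the array, the circadian phosphatase nocturnin) is named after its values were seen, because its 2 probes disagreed, with -0.14 by the brighter probe and 0.88 by the other for daidzein+PT over PBS.

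**Figure D4:**
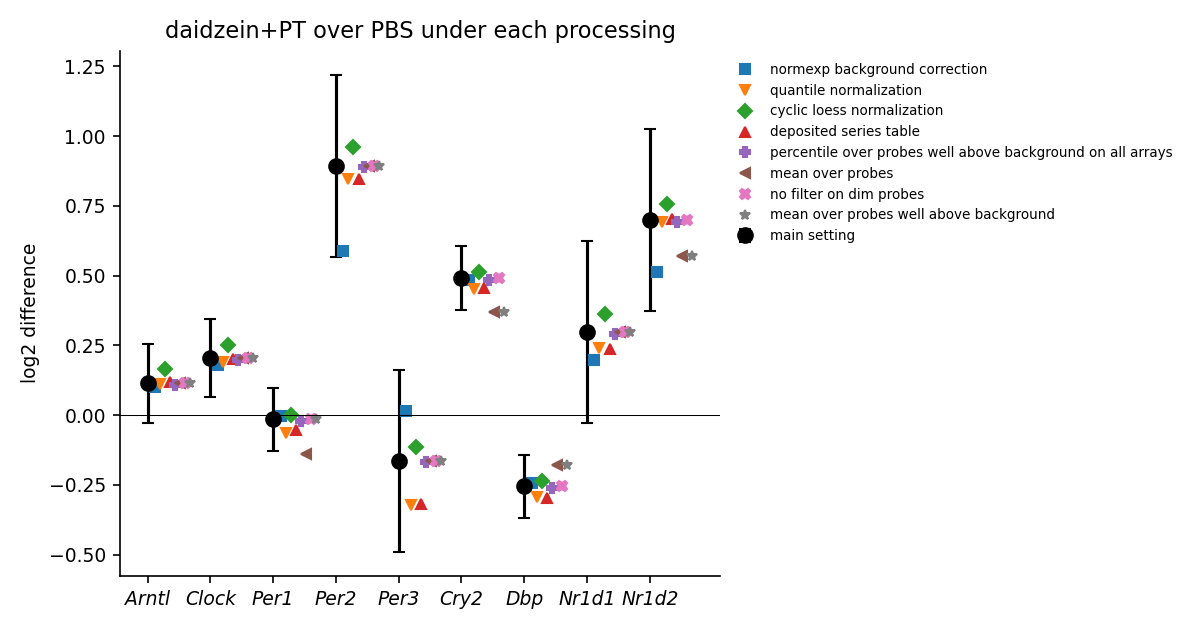
Log2 difference of daidzein+PT over PBS for the 9 clock genes under the processing used throughout (black circles, bars are the SD of a difference for the gene's class of signal) and under the 8 other settings (coloured symbols). Per2, Nr1d2 and Cry2 stay above 0 and Dbp below 0 under each setting, and Per2 ranges down to 0.59.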

How the data were processed

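RNA of 4 groups, 1 array each, was measured. The deposited scanner files hold spot intensity on a linear scale, background-subtracted and detrended within each array by Feature Extraction 10.7.1.1, per the file headers (9.5.1.1 per the submitters' processing notes). They also hold its error, the raw mean and local background intensity, and other columns that are flags, per the file headers. The deposited series table holds an intensity whose normalization the labels do not state; its columns share their quantiles. It was used only as an alternative.

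Control and outlier spots were left out. Processed signals were put on the log2 scale, less the array's 75th percentile over probes (304 for daidzein+PT, 344 for daidzein, 353 for PT and 314 for PBS), with replicate spots averaged. Of several probes of a gene, the brightest by mean signal stood for it, and a gene was compared where well above background on both arrays. Of 55681 probes, 27235 matched a RefSeq accession (GRCm38.p6, names only); probe positions are the files' (mm9), and whether they lie in an exon or UTR was not analysed here. No test between groups was fitted, since none has a replicate; differences of 2-fold and 1.5-fold were counted. Alternatives used limma 3.58.1 in R 4.3.3 for normexp (offset 50), quantile and cyclic loess; the rest was computed with Python 3.11.15. The functions were tested on simulated data. The array number limits the precision. Named genes are all 10 members, Thra, up to 5 genes of each of the 2 other lists by the size of daidzein+PT over PBS, those at 2-fold in any comparison, and the 5 genes nearest to each clock gene with a range of 1 or more. Further genes of the lists are named for their role or as the ends of a range, after their values were seen. The members and lists were chosen with earlier results of these data known. An item of the list of further clock genes is not reported here, and its counts leave it out.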

Additional observations from a re-analysis of the deposited data

Results flagged for a closer look

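Some clock genes had differences of opposite sign for the same treatment with and without the other treatment. None of these differences was tested, since each rests on 1 array per group. The sign was the same in both pairs for 7 of 9 clock genes for daidzein and 6 of 9 for PT. Over all 18348 genes it was the same in 68.1% for daidzein and 55.0% for PT, so opposite signs were also common among all genes. Some signs of small differences changed with the processing. For Per1, PT added to daidzein kept its sign in 3 of 8 other settings, and for Dbp, PT over PBS did so in 3 of 8. Arntl had a PT difference of -0.0341 with daidzein and 0.0874 without it. For Per1 the PT difference was 0.014 with daidzein and -0.112 without it, and the daidzein difference was 0.0967 with PT and -0.0291 without it. These values of Arntl and Per1 are at or under the SD of a difference in their classes of signal (0.14 and 0.11). In Per2, daidzein gave 0.58 with PT and -0.14 without it, with an SD of 0.33. Nr1d1 had a PT difference of 0.25 with daidzein and -0.27 without it, both under the SD of 0.33; the second was -0.37 with quantile normalization and -0.38 in the deposited series table.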

How the results depend on the processing

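The 9 clock genes were recomputed under 7 other settings, and under 1 more, the mean over a gene's probes well above background, that was chosen after seeing the data. The count took in 109 values, those of the 9 clock genes, of Thra and of named genes of the 2 other lists. Of these, 9 moved by more than the spread with normexp and 18 with the mean over probes. With the mean over probes well above background 12 moved, and the other 5 settings moved 0. None of the values moved with normexp was of a clock gene. With the mean over probes the clock genes that moved were Per1 and Cry2. With the mean over probes well above background Cry2 alone did so. The median of all genes moved by over 0.1 only without the filter on dim probes, by 0.13 for daidzein+PT over PBS. Without that filter all genes at 2-fold numbered 3733 for daidzein+PT over PBS, 2962 for daidzein over PBS, 3098 for PT over PBS, 3187 for daidzein+PT over daidzein and 3845 for daidzein+PT over PT, against 570, 279, 177, 222 and 548; with normexp they numbered 324, 132, 43, 67 and 274. Clock genes at 1.5-fold were 1 for daidzein+PT over PBS (in place of 2), and 0 for daidzein over PBS (in place of 1), with normexp and with either mean over probes. Clock genes at 2-fold for daidzein+PT over daidzein were 0 (in place of 1) with normexp, with quantile normalization and in the deposited series table. For daidzein+PT over PT, clock genes at 1.5-fold were 2 (in place of 0) with quantile normalization, cyclic loess and the deposited series table. Without the filter Cry1, below background, added 1 clock gene: 1 at 2-fold and 3 at 1.5-fold for daidzein+PT over PBS, 1 at 1.5-fold for PT over PBS, 2 at 2-fold and 2 at 1.5-fold for daidzein+PT over daidzein, and 1 at 2-fold and 1 at 1.5-fold for daidzein+PT over PT. The median of the clock-output genes for daidzein+PT over PBS was 0.05 with either mean over probes, against -0.09. Differences near 0 of Arntl, Clock, Per1, Per3 and Dbp changed sign in some settings. No paired analysis was possible because each group has 1 array, so no replicate number can serve as a block (the pairs of arrays in the text pair treatments, not replicates), and for the same reason no array could be left out. Dim spots (Per2, Per3, Nr1d1, Nr1d2) are limited by their signal over background, and the number of arrays limits the precision of every value.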
